A study of Mus musculus with 12 samples.

Results

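Dlk1, Meg3 and Rian are 3 genes of the imprinted Dlk1-Dio3 domain on mouse chromosome 12, and their transcripts were followed across 4 groups of 3 expression arrays. The genes were chosen by symbol, with earlier results of these same arrays in view, so that their levels and differences are given as a description and carry no p-value. Every probe set (a group of short probes read out as a single signal) that the platform annotation assigns to these symbols was taken and is shown singly. That gave 17 probe sets among 45037 on the array, which between them name 18193 genes: 2 for Dlk1, 11 for Meg3 and 4 for Rian.

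The domain is a textbook case of genomic imprinting. Dlk1, Rtl1 and Dio3 are read from the chromosome inherited from the father, and the non-coding RNAs Meg3, Rian and Mirg from the chromosome inherited from the mother, under the control of a methylated region between Dlk1 and Meg3. Dlk1 encodes a transmembrane protein with EGF-like repeats, related to the Notch ligands but without the domain that those use to bind Notch, and is known from fetal liver, preadipocytes and immature blood cells. Meg3 is a long non-coding RNA, Rian carries box C/D small nucleolar RNAs and Mirg carries microRNAs. The maternal RNAs of the domain are known to be abundant in mouse long-term haematopoietic stem cells. The arrays do not tell the parental alleles apart.

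All 12 samples were cultured mouse bone marrow cells made pre-leukaemic by the fusion gene NUP98-HOXD13 (ND13). Marrow came from 5-fluorouracil-treated (C57Bl/6Ly-Pep3b x C3H/HeJ) F1 animals. It was infected with an ND13-GFP or ND13pac virus, a choice the labels do not give per sample, and grown for 4 weeks with human IL-6 (10 ng/ml), mouse IL-3 (6 ng/ml) and mouse SCF (100 ng/ml). A second retrovirus was then given by 2 days of growth on irradiated E86 producer cells with protamine sulfate (5 µg/ml). MEIS1-WT cells received wild-type MEIS1, a homeodomain partner of HOX proteins. MEIS1-deltaHD cells received MEIS1 without its homeodomain, and M33-MEIS1 cells received a MEIS1 form carrying the name M33, an older name of the mouse Polycomb protein Cbx2. MIY-ctrl cells received the YFP vector alone, so that the controls carry ND13 as well. The design text counts 3 independent experiments per condition, and cells were sorted before RNA extraction. These are virus-transduced culture populations, not cells of an animal.

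The array signals had been scaled by the authors to a trimmed mean of 100 on every array, and array medians lay between 14.3 and 15.3 in MEIS1-WT, between 13.1 and 13.9 in MEIS1-deltaHD, between 14.0 and 16.04 in M33-MEIS1 and between 17.4 and 21.6 in MIY-ctrl. Signals near or below these medians are close to the array's floor, and 3 arrays per group set the precision. The 3 Meis1 probe sets did not show the introduced gene. The brightest of them, 1450992_a_at, read 129 to 148 in MEIS1-WT, 100.1 to 120 in MEIS1-deltaHD and 104 to 133 in M33-MEIS1, against 168 to 205 in MIY-ctrl, and the part of the transcript it reads was not checked. The label M33-MEIS1 had a counterpart in the Cbx2 probe set 1422059_at, which read 40.9 to 59.8 in M33-MEIS1 cells and no more than 14.7 on the other arrays, but not in the second, 1434116_at, with means of 63.9 in M33-MEIS1 and 82.1 in MIY-ctrl. Defining markers of blood cells were bright on every array: the summed signal of 10 pan-haematopoietic genes was 12675 to 13318 in MEIS1-WT, 14127 to 14457 in MEIS1-deltaHD, 14723 to 15433 in M33-MEIS1 and 17060 to 18406 in MIY-ctrl, with the actin regulator Coro1a the brightest.

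The windows around the annotated starts of the 3 genes, 250 bases before to 50 after, are printed because they show how different annotated starts within a domain can be. They come from RefSeq on GRCm38.p6, where all lie on the plus strand, and the table holds a window for all 3 genes, with a pair of windows for Meg3, of which the first is shown. Capitals mark matches to a MEIS motif (TGACAG), a PBX-HOX motif (TGATTNAT), a cAMP response element (TGACGTCA) or a TATA box (TATAAA), searched on both strands.
Dlk1 chr12:109452573-109452872: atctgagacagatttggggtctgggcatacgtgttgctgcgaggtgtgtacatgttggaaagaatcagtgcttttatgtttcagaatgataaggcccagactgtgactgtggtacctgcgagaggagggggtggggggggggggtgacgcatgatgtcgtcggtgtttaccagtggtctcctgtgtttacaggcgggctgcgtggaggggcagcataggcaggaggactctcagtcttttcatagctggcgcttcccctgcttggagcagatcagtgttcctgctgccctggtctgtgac
Meg3 chr12:109540746-109541045: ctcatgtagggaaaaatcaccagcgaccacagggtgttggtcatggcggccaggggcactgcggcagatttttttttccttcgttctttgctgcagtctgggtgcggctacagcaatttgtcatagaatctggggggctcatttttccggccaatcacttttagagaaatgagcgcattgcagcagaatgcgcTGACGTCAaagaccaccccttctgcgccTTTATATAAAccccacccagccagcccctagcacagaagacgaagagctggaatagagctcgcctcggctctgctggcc
Rian chr12:109603695-109603994: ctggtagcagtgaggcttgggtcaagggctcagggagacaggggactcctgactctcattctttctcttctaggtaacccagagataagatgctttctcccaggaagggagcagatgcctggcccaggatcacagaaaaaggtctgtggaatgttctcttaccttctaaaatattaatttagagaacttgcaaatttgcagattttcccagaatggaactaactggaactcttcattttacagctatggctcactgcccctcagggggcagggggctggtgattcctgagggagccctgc

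The Meg3 window held 3 matches: a cAMP response element 57 bases before the start, and 2 overlapping TATA matches that begin 29 bases before it on the minus strand and 25 bases before it on the plus strand. The Dlk1 and Rian windows, and the second Meg3 window, held none of the 4 letter strings. Among all 32851 promoter windows of the same length, 19.2% held the MEIS motif, 3.22% the PBX-HOX motif, 1.79% the cAMP response element and 13.6% the TATA box. The windows also differed in CpG dinucleotides, the sites of DNA methylation: 9 in Dlk1, 13 in the first Meg3 window and 0 in Rian, beside a median of 7 over all windows. The second Meg3 window held 1, so annotated starts of the same gene differed as well. These matches describe letters in a window. They do not show binding, and no array measured methylation.

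Dlk1 was the member that stood out. Its bright probe set, 1449939_s_at, read 1769, 1425 and 1704 in MEIS1-WT, 106, 103 and 117 in MEIS1-deltaHD, 144, 162 and 170.5 in M33-MEIS1, and 226, 248 and 305 in MIY-ctrl. No group overlapped any other, and the order from high to low was MEIS1-WT, MIY-ctrl, M33-MEIS1, MEIS1-deltaHD. The suffix of this probe set says that its probes may be shared between transcripts, which was not checked. On its own array the probe set ranked between the 97.7th and 98.3rd percentile of all signals in MEIS1-WT, between the 77.3rd and 78.5th in MEIS1-deltaHD, between the 81.1st and 83.0th in M33-MEIS1, and between the 85.7th and 88.9th in MIY-ctrl.

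**Figure D1:**
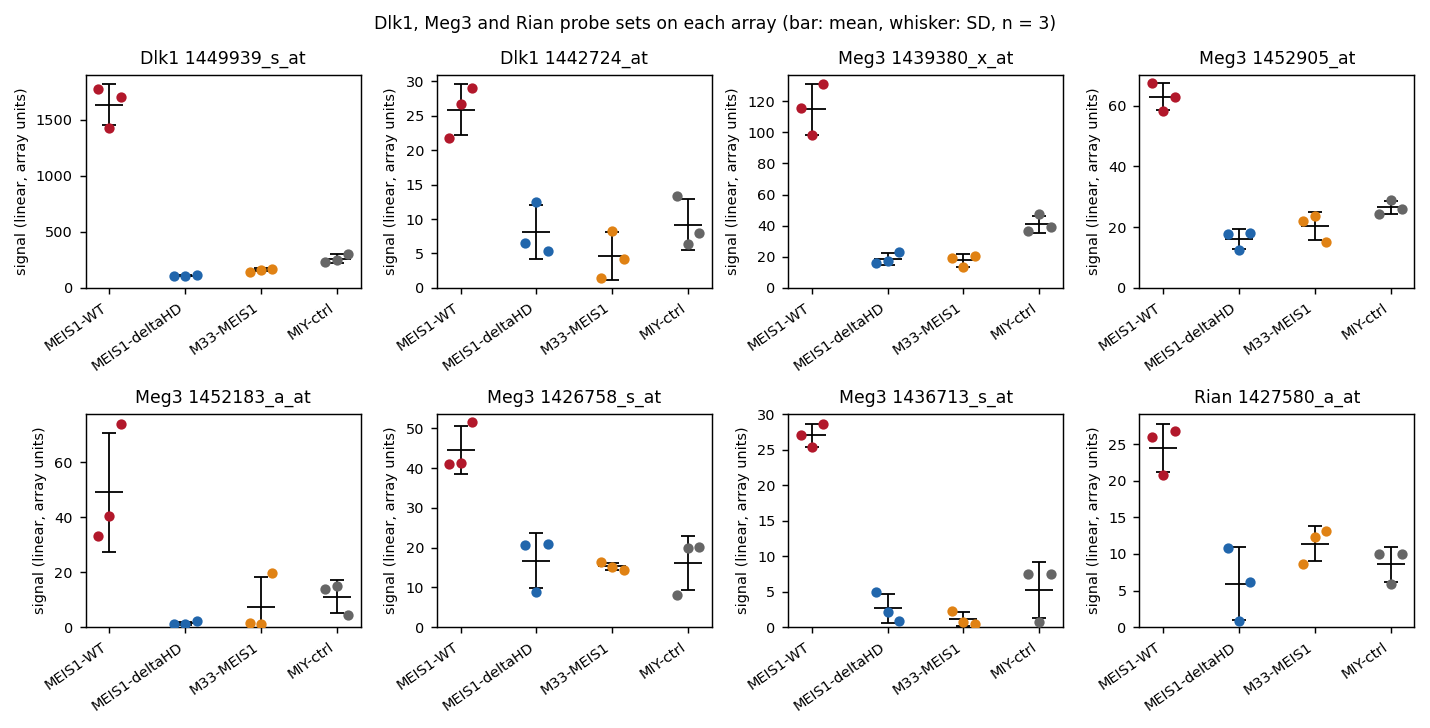
Signal of 8 probe sets of Dlk1, Meg3 and Rian. They were chosen as higher in MEIS1-WT than in MIY-ctrl (limma adjusted p under 0.05) with no overlap of arrays. In each, all 3 MEIS1-WT arrays also lie above the other 9. The share of all probe sets that do so was not counted. The scale is linear from 0 and differs between panels. Each point is an array, the bar is the group mean and the whisker its SD (n = 3). The Dlk1 panel at the upper left has means of 1633, 109, 159 and 259.6 from left to right.

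Differences are given on the log2 scale of signal plus 16, as the first named group minus the second, with the standard error of a model across all probe sets; this offset shrinks the differences of dim probe sets. In MEIS1-WT against MIY-ctrl, Dlk1 1449939_s_at differed by 2.58 ± 0.11 (SE, n = 3 each), a signal ratio of 6.29, and ranked number 2 from the top among the 31762 probe sets that passed the filter on low signals. It ranked number 1 in the comparison of MEIS1-WT with MEIS1-deltaHD, where it differed by 3.72 ± 0.11 (15.0-fold), and number 1 again with M33-MEIS1, where it differed by 3.23 ± 0.11 (10.3-fold). These ranks describe a gene that was picked in view of them.

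The other constructs ran the opposite way. Dlk1 1449939_s_at differed by -1.14 ± 0.11 in MEIS1-deltaHD against MIY-ctrl, a signal ratio of 0.418, and by -0.65 ± 0.11 in M33-MEIS1 against MIY-ctrl, a ratio of 0.613. With every array divided by its median in place of the authors' scaling, these were -0.67 and -0.31. M33-MEIS1 against MEIS1-deltaHD differed by 0.49 ± 0.11, 1.46-fold, and by 0.36 to 0.55 under other settings and with single arrays left out.

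The second Dlk1 probe set, 1442724_at, lay near the floor. It read 21.8, 26.8 and 29.0 in MEIS1-WT, 6.46, 12.53 and 5.37 in MEIS1-deltaHD, 1.46, 8.28 and 4.13 in M33-MEIS1, and 13.3, 6.30 and 7.97 in MIY-ctrl. MEIS1-WT again lay above all other arrays, while the other 3 groups overlapped. The difference was 0.74 ± 0.21 in MEIS1-WT against MIY-ctrl and 0.80 ± 0.21 against MEIS1-deltaHD. Each missed the threshold of the counts given below under 1 of 7 other settings. The second also missed it in 4 of 12 omissions of an array.

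The probe sets of Meg3 did not all read the same. The brightest, 1439380_x_at, read 115, 98.4 and 131 in MEIS1-WT, 15.97, 17.2 and 22.9 in MEIS1-deltaHD, 19.1, 13.2 and 20.7 in M33-MEIS1, and 36.7, 47.2 and 39.3 in MIY-ctrl. MEIS1-WT and MIY-ctrl overlapped neither each other nor the remaining groups, whereas MEIS1-deltaHD and M33-MEIS1 overlapped. The suffix of this probe set says that some of its probes may bind transcripts of other genes.

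Its difference was 1.196 ± 0.16 in MEIS1-WT against MIY-ctrl (SE, n = 3 each), a signal ratio of 2.80. MEIS1-deltaHD differed from MIY-ctrl by -0.72 ± 0.16 and M33-MEIS1 by -0.76 ± 0.16. With arrays divided by their medians the MEIS1-deltaHD difference was -0.39. MEIS1-WT differed by 1.91 ± 0.16 against MEIS1-deltaHD and by 1.96 ± 0.16 against M33-MEIS1, and ranked number 9 from the top in both.

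A further 4 Meg3 probe sets had all 3 MEIS1-WT arrays above the other 9. How many of all probe sets do so was not counted. Probe set 1452905_at read 67.5, 58.4 and 63.0 in MEIS1-WT, 17.8, 12.4 and 18.2 in MEIS1-deltaHD, 22.1, 23.8 and 15.2 in M33-MEIS1, and 24.4, 28.9 and 26.1 in MIY-ctrl. It was the only one of the 4 in which both MEIS1-deltaHD and M33-MEIS1 also lay wholly below the controls. Its difference in MEIS1-WT against MIY-ctrl was 0.89 ± 0.16.

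Probe set 1426758_s_at averaged 44.6 ± 6.0 in MEIS1-WT, 16.8 ± 6.9 in MEIS1-deltaHD, 15.3 ± 0.96 in M33-MEIS1 and 16.1 ± 6.8 in MIY-ctrl (SD, n = 3 each), and 1452183_a_at, which was designed on the same accession, averaged 49.1 ± 21.7, 1.46 ± 0.58, 7.51 ± 10.7 and 11.1 ± 5.9 in the same order. In the first of this pair the 3 groups other than MEIS1-WT read alike within their spread. In the other, the MEIS1-deltaHD arrays lay wholly below the MIY-ctrl arrays. Probe set 1436713_s_at read 25.3 to 28.6 in MEIS1-WT and at most 7.50 on the other 9 arrays. It thus passed the filter on low signals through the MEIS1-WT arrays alone. The suffixes of 1426758_s_at and 1436713_s_at also mark probes that may be shared between transcripts. The MEIS1-WT difference of 1426758_s_at against MEIS1-deltaHD, 0.91 ± 0.20, was 0.72 without MEIS1-deltaHD replicate 2.

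The other Meg3 probe sets gave no such order. Of the 6, 1452906_at never left the lowest 40% of its array, with 0.945 to 5.66 across all arrays. The remaining 5, 1428764_at, 1428765_at, 1429256_at, 1429257_at and 1436057_at, differed by -0.29 to 0.42 in MEIS1-WT against MIY-ctrl with standard errors of 0.23 to 0.28. Probe set 1436057_at, the brightest of them, read 24.2 to 37.6 in MEIS1-WT, 14.2 to 22.9 in MEIS1-deltaHD, 1.90 to 28.0 in M33-MEIS1 and 18.1 to 25.9 in MIY-ctrl. Source accessions recur among them: 1428764_at, 1428765_at and the brighter 1452905_at share a source, as do 1429256_at and 1429257_at, so that probe sets are no independent samples of the transcript.

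Rian lay near the floor on most arrays. Only 1427580_a_at set the MEIS1-WT arrays apart upward, with 26.0, 20.8 and 26.9 in MEIS1-WT, 10.8, 0.849 and 6.15 in MEIS1-deltaHD, 8.65, 12.3 and 13.2 in M33-MEIS1, and 10.0, 5.85 and 10.0 in MIY-ctrl. The other 3 groups overlapped one another. The difference was 0.72 ± 0.21 in MEIS1-WT against MIY-ctrl, 0.91 ± 0.21 against MEIS1-deltaHD and 0.57 ± 0.21 against M33-MEIS1. Without MEIS1-deltaHD replicate 2, the lowest array, the second was 0.73. The first missed the threshold of the counts given below under 1 of 7 other settings, and the third missed it in the main fit.

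Its remaining probe sets lay at the floor and disagreed with it. Probe set 1440001_at read 1.22 to 4.87 in MEIS1-WT, 10.6 to 12.7 in MEIS1-deltaHD, 1.53 to 11.2 in M33-MEIS1 and 7.11 to 14.2 in MIY-ctrl, which put MEIS1-WT lowest. Probe set 1452899_at read 8.07 to 16.8 in MEIS1-WT, 0.604 to 10.1 in MEIS1-deltaHD, 7.26 to 18.4 in M33-MEIS1 and 11.1 to 20.8 in MIY-ctrl. The last, 1428055_at, read at most 12.3 on any array and did not pass the filter.

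**Figure D2:**
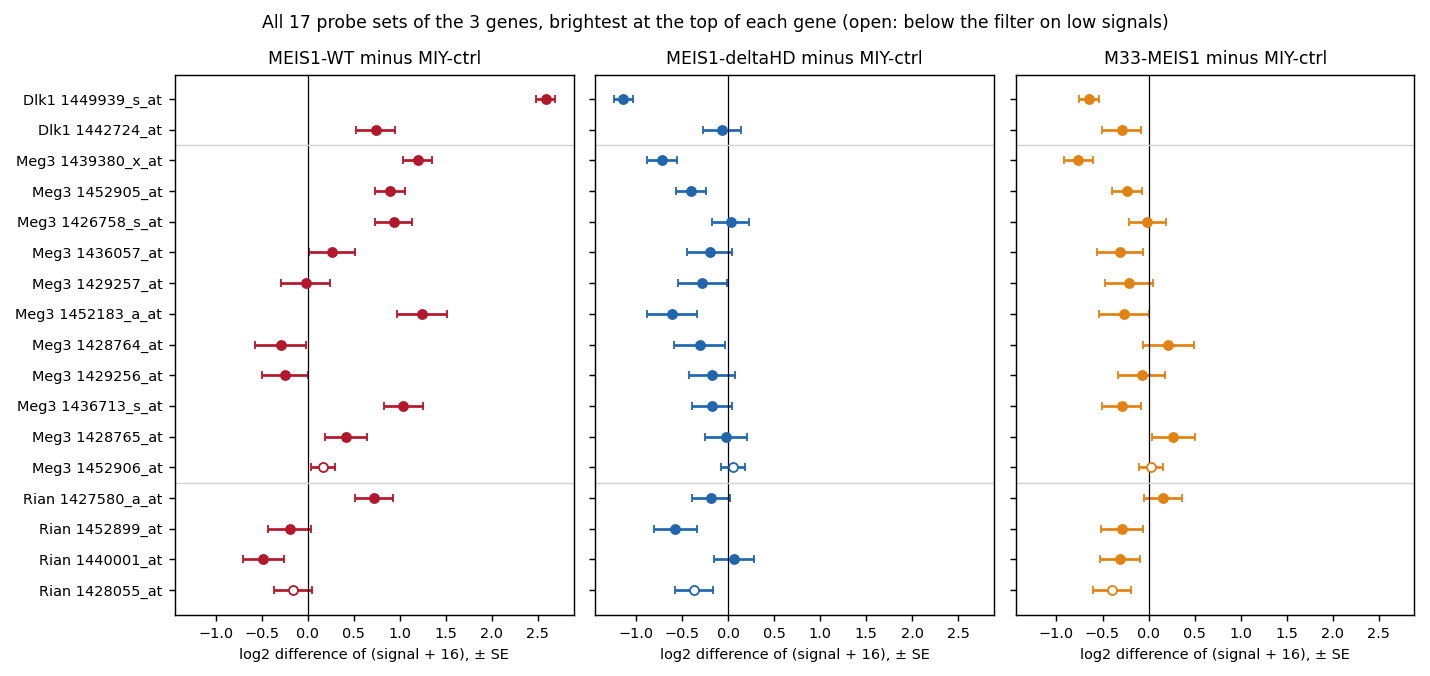
Log2 difference of (signal + 16) ± SE against MIY-ctrl for all 17 probe sets, 1 panel per construct, brightest probe set at the top of each gene; open circles did not pass the filter on low signals. In the left panel Dlk1 1449939_s_at lies at 2.58, 5 Meg3 probe sets lie between 0.89 and 1.24, and 1 of 4 Rian probe sets lies at 0.72; in the other panels Dlk1 1449939_s_at and Meg3 1439380_x_at lie to the left of 0, while Meg3 1426758_s_at lies at 0.03 in MEIS1-deltaHD.

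Of the 17 probe sets 15 passed the filter (above the 40th percentile of their array on at least 3 of 12 arrays). Several did so mainly through the MEIS1-WT arrays, so the counts that follow, of probe sets past an adjusted p of 0.05 in the limma fit, are no support for a difference and only place the members beside the whole array. In MEIS1-WT against MIY-ctrl, 8 of the 15 met this threshold as higher, where 13.1% of all probe sets did, and 17.8% of all met it as lower. The count of 8 was 6 with an offset of 1, and 7 of 14 without any 1 of the MEIS1-WT arrays. Without the trend, 1 probe set was also lower. In MEIS1-deltaHD against MIY-ctrl 2 were lower, where 20.8% of all were lower and 13.7% higher. In M33-MEIS1 against MIY-ctrl 2 were lower as well, beside 17.1% of all lower and 11.8% higher. With arrays divided by their medians both of these counts were 1, and in MEIS1-deltaHD the count was 4 without M33-MEIS1 replicate 3, without MIY-ctrl replicate 3 or with an offset of 1, and 3 without MEIS1-deltaHD replicate 3, with no trend or with a stricter filter.

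Between the constructs far fewer probe sets of the whole array met the threshold. MEIS1-WT against MEIS1-deltaHD had 8 of the 15 higher, where 2.11% of all were higher and 2.41% lower. This was 6 of 15 without MEIS1-deltaHD replicate 2, and 6 of 14 without MEIS1-WT replicate 2 or 3. MEIS1-WT against M33-MEIS1 had 7 of the 15 higher, where 2.19% of all were higher and 3.35% lower. M33-MEIS1 against MEIS1-deltaHD had 1 of the 15 higher, Dlk1 1449939_s_at, where 0.438% of all were higher and 0.0535% lower; it was 0 of 15 without MEIS1-deltaHD replicate 1 or 2 or M33-MEIS1 replicate 2 or 3, and under 5 of 8 other settings. A stricter filter kept 6 of the probe sets, of which 5 were higher in MEIS1-WT than in MIY-ctrl and 5 than in MEIS1-deltaHD. The comparisons share groups, so they are not separate evidence.

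The choice of scaling matters for every comparison with MIY-ctrl. The median log2 difference of 14024 genes, each read from its brightest probe set, was -0.10 in MEIS1-WT, -0.14 in MEIS1-deltaHD and -0.10 in M33-MEIS1 against MIY-ctrl, and 0.15, 0.19 and 0.14 when each array was divided by its median. The share of higher genes among those that met the threshold was 44.4%, 41.4% and 43.8% in the same order, and 79.5%, 84.2% and 82.8% after that division, or 51.9%, 50% and 51.4% after quantile normalization. For MEIS1-WT against MEIS1-deltaHD it was 47.4%, and 25.6% after division by the median. Under each of these scalings the Dlk1 1449939_s_at differences kept their direction in all 6 comparisons.

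The rest of the domain gave little signal. Mirg, the microRNA host RNA at its far end, was the only 1 of the 3 remaining domain genes (Rtl1, Mirg and Dio3) with a probe set assigned to it alone, and it averaged 12.98 ± 6.3 in MEIS1-WT, 9.90 ± 4.8 in MEIS1-deltaHD, 10.7 ± 2.6 in M33-MEIS1 and 9.33 ± 1.9 in MIY-ctrl (SD, n = 3 each). Its groups overlapped, and its difference in MEIS1-WT against MIY-ctrl was 0.17 ± 0.21 (limma adjusted p = 0.589). RefSeq places 58 microRNA hairpins between Dlk1 and Dio3, 54 of them on the strand of Meg3. MicroRNAs were not measured.

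Genes that flank the domain were read next, from a list of 25 of which 20 passed the filter. Each was tested with limma and Benjamini-Hochberg adjustment over all 31762 probe sets. This list and the later ones were chosen with earlier results of these arrays known. Their adjusted p-values and counts therefore place the genes beside the whole array and are no independent support. In MEIS1-WT against MIY-ctrl 2 rose and 7 fell, that is 10% and 35%, where 16.1% of all genes rose and 20.2% fell. In MEIS1-deltaHD 2 rose and 7 fell (all genes 16.7% and 23.7%), and in M33-MEIS1 2 rose and 4 fell (all genes 15% and 19.2%). The count of 9 in MEIS1-deltaHD came to 3, 5 and 3 without MIY-ctrl replicate 1, MIY-ctrl replicate 3 or MEIS1-deltaHD replicate 2. Between MEIS1-WT and each of MEIS1-deltaHD and M33-MEIS1, Evl alone differed, where 2.85% and 2.59% of all genes rose and 3.17% and 4.65% fell.

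Evl, an actin regulator of the Ena/VASP family upstream of Dlk1, was lowest in MEIS1-WT. It read 22.1, 9.80 and 12.1 in MEIS1-WT, 50.6, 39.8 and 42.9 in MEIS1-deltaHD, 58.1, 86.9 and 60.6 in M33-MEIS1, and 99.1, 99.7 and 140.3 in MIY-ctrl. MEIS1-WT lay below all other groups and MIY-ctrl above them. Evl fell by 2.08 in MEIS1-WT against MIY-ctrl (SE 0.17, limma adjusted p = 2.27e-09), by 0.99 against MEIS1-deltaHD (adjusted p = 0.000699) and by 1.47 against M33-MEIS1 (adjusted p = 3.08e-06).

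Evl also fell in MEIS1-deltaHD (-1.08, limma adjusted p = 3.23e-05) and in M33-MEIS1 (-0.61, adjusted p = 0.0103) against MIY-ctrl. The M33-MEIS1 call was lost with arrays divided by their medians, and without MIY-ctrl replicate 3 or M33-MEIS1 replicate 1. Cinp, a CDK2-interacting protein, rose in all 3 constructs against MIY-ctrl, by 0.64, 0.87 and 0.64 (limma adjusted p at most 5.92e-06). The dynein heavy chain gene Dync1h1 fell in all 3, by 0.63 in MEIS1-WT, 0.61 in MEIS1-deltaHD and 0.70 in M33-MEIS1 (limma adjusted p at most 9.45e-06), of which only the last held with arrays divided by their medians. The tRNA synthetase gene Wars fell by 0.56 in M33-MEIS1 (limma adjusted p = 0.000137) and by 0.32 in each of MEIS1-WT and MEIS1-deltaHD (adjusted p = 0.0176 and 0.0153). No Wars call held after that division, which turned the sign in MEIS1-WT (0.039) and MEIS1-deltaHD (0.17), and those 2 were also lost without MIY-ctrl replicate 1 or 2 or replicate 2 of the construct.

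Dimmer neighbours gave weaker calls. The kinase gene Mok fell by 0.72 in MEIS1-WT and by 0.74 in MEIS1-deltaHD against MIY-ctrl (limma adjusted p = 0.0223 and 0.017), and Hhipl1 by 0.68 and 0.56 (adjusted p = 0.0114 and 0.0329). None of these 4 calls held under median scaling or quantile normalization. The Mok calls were also lost without MIY-ctrl replicate 1, and that in MEIS1-WT without MIY-ctrl replicate 3 or MEIS1-WT replicate 1 or 3, that in MEIS1-deltaHD without its replicate 2. The Hhipl1 call in MEIS1-deltaHD was lost without any 1 of the MIY-ctrl arrays or MEIS1-deltaHD replicate 2.

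**Figure D3:**
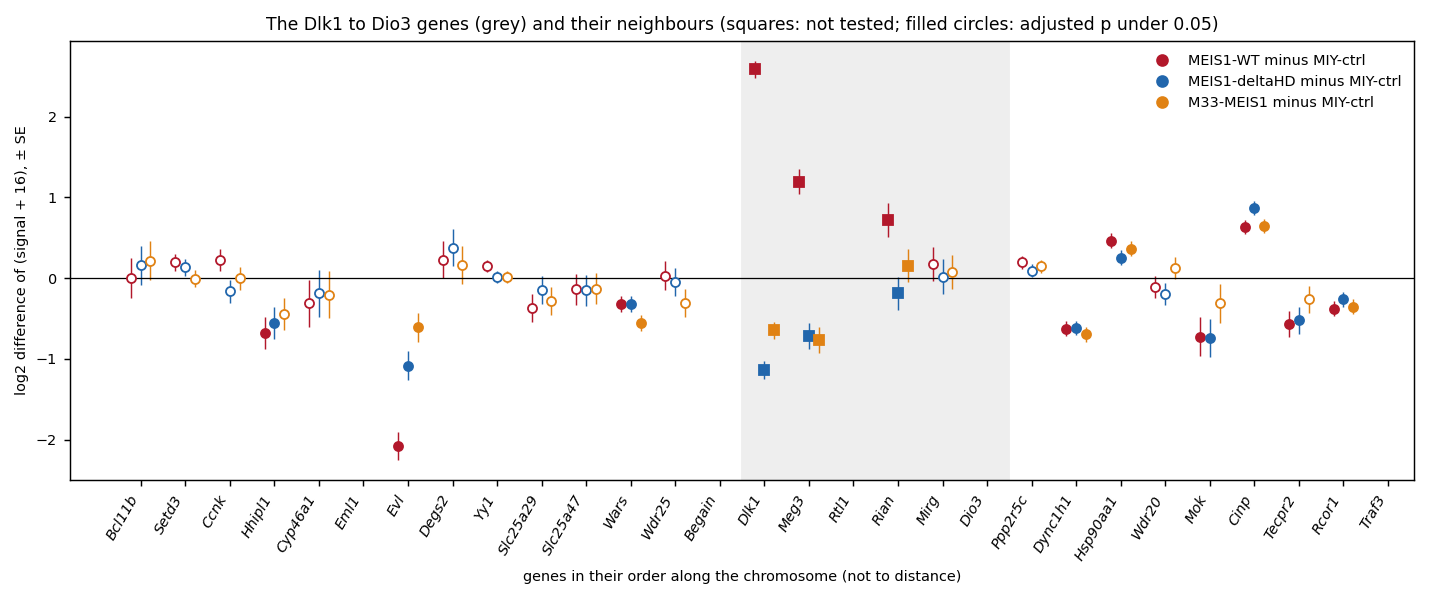
Log2 difference of (signal + 16) ± SE against MIY-ctrl for the genes of the Dlk1-Dio3 domain (grey band) and their flanks, in the order they have along the chromosome and not to distance; squares are Dlk1, Meg3 and Rian (brightest probe set, not tested), filled circles have an adjusted p under 0.05, and a name without marks had no probe set that passed. The MEIS1-WT values stand at 2.58 for Dlk1, 1.196 for Meg3 and 0.72 for Rian, and at 0.17 for Mirg. The Rian probe set, 1427580_a_at, is the brightest only through its MEIS1-WT arrays, so its upward mark partly follows from that choice. Rian 1452899_at and 1440001_at, not drawn, stood at -0.19 and -0.48. Among the flanking genes the value farthest from 0 is that of Evl, at -2.08.

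Imprinted genes at other loci were taken as a list of 46, of which 27 passed the filter. In MEIS1-WT against MIY-ctrl 3 rose and 1 fell, in MEIS1-deltaHD 3 rose and 2 fell, and in M33-MEIS1 3 rose and 3 fell, beside the shares of all genes given above. MEIS1-WT differed from MEIS1-deltaHD in 2 of them and from M33-MEIS1 in the same 2, Plagl1 upward and Gatm downward. The count of 5 in MEIS1-deltaHD was 3 without MIY-ctrl replicate 1, MIY-ctrl replicate 2 or MEIS1-deltaHD replicate 2, and 2 without MEIS1-deltaHD replicate 1.

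Plagl1, a zinc-finger factor known in mouse as a regulator of a network of imprinted genes, was likewise highest in MEIS1-WT and lower in MEIS1-deltaHD and M33-MEIS1 than in MIY-ctrl. Its probe set 1426208_x_at read 68.9, 58.9 and 53.1 in MEIS1-WT, 7.28, 6.56 and 5.64 in MEIS1-deltaHD, 1.30, 10.3 and 1.95 in M33-MEIS1, and 20.0, 23.4 and 10.9 in MIY-ctrl. MEIS1-WT lay above all other arrays, and MIY-ctrl above both MEIS1-deltaHD and M33-MEIS1, over M33-MEIS1 by a narrow gap. Plagl1 rose by 1.18 in MEIS1-WT against MIY-ctrl (SE 0.21, limma adjusted p = 9.03e-05), by 1.76 against MEIS1-deltaHD (adjusted p = 3.97e-06) and by 1.92 against M33-MEIS1 (adjusted p = 6.67e-07).

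Against MIY-ctrl Plagl1 fell by 0.74 in M33-MEIS1 (limma adjusted p = 0.00843) and by 0.58 in MEIS1-deltaHD (adjusted p = 0.0314), where the second was lost under 10 of 21 other settings, among them each omission of a MEIS1-deltaHD array and of MIY-ctrl replicate 1 or 2. The only other Plagl1 probe set that passed, 1438588_at, did not show this. It averaged 9.19 in MEIS1-WT, 12.96 in MEIS1-deltaHD, 16.98 in M33-MEIS1 and 11.9 in MIY-ctrl, with a difference of -0.16 in MEIS1-WT against MIY-ctrl (limma adjusted p = 0.612). The suffix of the first probe set says that some of its probes may bind other transcripts, so the Plagl1 result rests on a probe set that may be shared.

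Gatm, which makes a precursor of creatine, took another course. It read 17.2, 11.2 and 8.38 in MEIS1-WT, 48.4, 34.4 and 20.8 in MEIS1-deltaHD, 33.1, 32.9 and 27.2 in M33-MEIS1, and 13.9, 10.2 and 17.6 in MIY-ctrl. Gatm was lower in MEIS1-WT than in MEIS1-deltaHD by 0.81 on the log2 scale (-0.81, limma adjusted p = 0.0185) and than in M33-MEIS1 (-0.75, adjusted p = 0.0297). Both calls were lost without MEIS1-WT replicate 2 or 3, the first also without MEIS1-deltaHD replicate 1 or 2 and the second without M33-MEIS1 replicate 1 or 2. Against MIY-ctrl Gatm rose by 0.73 in MEIS1-deltaHD (limma adjusted p = 0.0074), not without MEIS1-deltaHD replicate 1, and by 0.66 in M33-MEIS1 (adjusted p = 0.0175), not without MIY-ctrl replicate 2 or M33-MEIS1 replicate 1 or 2.

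Tssc4 rose in all 3 constructs alike, by 0.88 in MEIS1-WT, 0.81 in MEIS1-deltaHD and 0.87 in M33-MEIS1 against MIY-ctrl (limma adjusted p at most 1.38e-06, under every setting tried at most 0.000168). Commd1, a copper-handling protein, rose by 0.32 in MEIS1-WT, 0.39 in MEIS1-deltaHD and 0.48 in M33-MEIS1 (limma adjusted p = 0.0139, 0.00312 and 0.00052), the first not without MIY-ctrl replicate 1 or MEIS1-WT replicate 3. The lipid phosphatase gene Inpp5f fell by 0.42 in MEIS1-WT against MIY-ctrl (limma adjusted p = 0.00909), not under median scaling or quantile normalization.

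The growth factor gene Igf2 and the exchange factor gene Rasgrf1 were near the floor. Igf2 fell by 0.82 in M33-MEIS1 against MIY-ctrl (limma adjusted p = 0.0424), a call lost under 12 of 20 other settings, among them the omission of each M33-MEIS1 array, of MIY-ctrl replicate 2 or 3 and of MEIS1-deltaHD replicate 1 or 3. Rasgrf1 fell by 0.71 in MEIS1-deltaHD (adjusted p = 0.029), lost under 8 of 20, and by 0.82 in M33-MEIS1 (adjusted p = 0.0139), lost under 4 of 20. The first Rasgrf1 call did not hold without MIY-ctrl replicate 1 or 2 or MEIS1-deltaHD replicate 1 or 2, and the second without MIY-ctrl replicate 1 or M33-MEIS1 replicate 1.

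**Figure D4:**
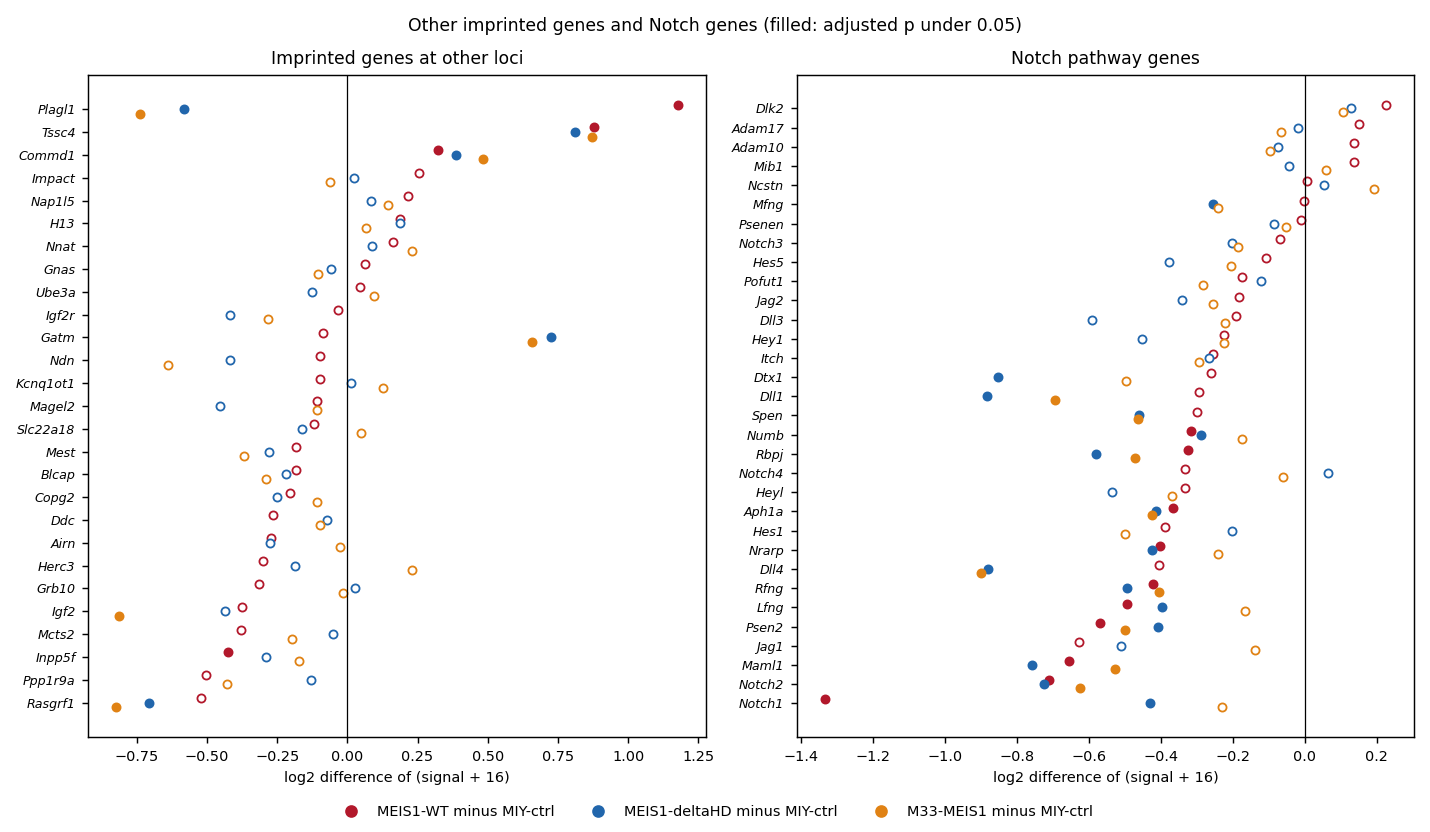
Log2 difference of (signal + 16) against MIY-ctrl for 27 imprinted genes at other loci (left) and 32 Notch pathway genes (right), ordered by the MEIS1-WT value; each circle is a construct, filled where the adjusted p was under 0.05. Plagl1 stands at the top left with 1.18 in MEIS1-WT and with -0.58 and -0.74 in MEIS1-deltaHD and M33-MEIS1, and no Notch gene has a filled circle to the right of 0.

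Dlk1 is related to the Notch ligands, so the pathway was read as a list of 36 genes, of which 32 passed the filter. Against MIY-ctrl 10 fell in MEIS1-WT, 15 in MEIS1-deltaHD and 9 in M33-MEIS1, and none rose (limma; 12, 19 and 14 had an unadjusted p under 0.05 in either direction). That is 31.2%, 46.9% and 28.1% of the list, where 20.2%, 23.7% and 19.2% of all genes fell. With arrays divided by their medians, 8 list genes met the threshold in MEIS1-deltaHD and 4 in M33-MEIS1, in either direction. These counts do not separate rises from falls. Of all genes that met the threshold after that division, 84.2% in MEIS1-deltaHD and 82.8% in M33-MEIS1 were higher. The shares of falling Notch genes given above therefore belong to the authors' scaling, and whether they stay above those of all genes after that division was not tested.

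The receptor gene Notch1 read 38.7, 35.1 and 40.8 in MEIS1-WT, 98.5, 86.9 and 72.1 in MEIS1-deltaHD, 99.1, 101.8 and 100.6 in M33-MEIS1, and 130, 112 and 119.5 in MIY-ctrl. MEIS1-WT lay below every other array. Notch1 fell by 1.33 in MEIS1-WT against MIY-ctrl (SE 0.12, limma adjusted p = 1.1e-08), by 0.90 against MEIS1-deltaHD (adjusted p = 3.4e-05) and by 1.10 against M33-MEIS1 (adjusted p = 1.21e-06). Against MIY-ctrl it also fell by 0.43 in MEIS1-deltaHD (adjusted p = 0.0086), which was 0.0058 with arrays divided by their medians and was lost without MEIS1-deltaHD replicate 3. It was the only Notch gene that met the threshold between MEIS1-WT and either MEIS1-deltaHD or M33-MEIS1. Without MEIS1-deltaHD replicate 3, 2 genes did so against MEIS1-deltaHD.

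The receptor gene Notch2 fell by 0.71, 0.72 and 0.62 in MEIS1-WT, MEIS1-deltaHD and M33-MEIS1 against MIY-ctrl (limma adjusted p at most 2.33e-05), and the coactivator gene Maml1 by 0.65, 0.76 and 0.53 in the same order (adjusted p at most 0.00298). Psen2, a gamma-secretase subunit that cuts Notch, fell by 0.57, 0.41 and 0.50 (limma adjusted p at most 0.0055), the MEIS1-deltaHD call not without MIY-ctrl replicate 1. Of these 9 calls, only the Notch2 call in MEIS1-WT held when arrays were divided by their medians, where Psen2 in MEIS1-deltaHD turned to 0.060. The MEIS1-WT call of Maml1 was also lost when probe sets that may be shared between transcripts were left out.

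Among ligands, Dll1 and Dll4 were dim and fell in both MEIS1-deltaHD and M33-MEIS1. Dll4 fell by 0.88 in MEIS1-deltaHD and by 0.90 in M33-MEIS1 against MIY-ctrl (limma adjusted p = 0.00239 and 0.00253), and Dll1 by 0.88 and 0.69 (adjusted p = 0.00191 and 0.0148), the last not under median scaling, quantile normalization or an offset of 1, nor without MIY-ctrl replicate 2. The ubiquitin ligase gene Dtx1 fell by 0.85 in MEIS1-deltaHD (adjusted p = 0.0043). In MEIS1-WT the means of Dll4 and Dll1 were 17.9 and 16.9, against 28.9 and 24.5 in MIY-ctrl, and neither met the threshold.

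Genes that write, read or guard DNA methylation at imprinted regions were a list of 23, of which 22 passed. Against MIY-ctrl 5 rose and 4 fell in MEIS1-WT, 5 rose and 5 fell in MEIS1-deltaHD, and 3 rose and 4 fell in M33-MEIS1. As shares of the 22 these are 22.7% and 18.2%, 22.7% and 22.7%, and 13.6% and 18.2%, near those of all genes, of which 16.1% rose and 20.2% fell in MEIS1-WT, 16.7% and 23.7% in MEIS1-deltaHD, and 15% and 19.2% in M33-MEIS1. The count of 10 in MEIS1-deltaHD was 4 without MEIS1-deltaHD replicate 1 and 6 without its replicate 2 or MIY-ctrl replicate 2, and the count of 7 in M33-MEIS1 was 4 without MIY-ctrl replicate 1 or 2 or M33-MEIS1 replicate 2. Uhrf1, which brings the maintenance methyltransferase to DNA, rose by 1.29 in MEIS1-WT, 1.24 in MEIS1-deltaHD and 1.08 in M33-MEIS1 (limma adjusted p at most 3.59e-07), and the chromatin remodeller gene Hells by 0.86, 0.54 and 0.53 (adjusted p at most 0.000177).

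Aff3, a protein that binds imprinted control regions in mouse embryonic stem cells, fell by 0.88 in MEIS1-WT, 1.03 in MEIS1-deltaHD and 0.63 in M33-MEIS1 (limma adjusted p at most 0.000229). The M33-MEIS1 call of Aff3 was lost under division by the median. Several dim genes fell too: Dnmt3l by 0.72 in MEIS1-WT, Zfp57 by 0.75 in MEIS1-deltaHD and 0.71 in M33-MEIS1, and Dppa3 by 0.60 and 0.61 in MEIS1-deltaHD and M33-MEIS1 (limma adjusted p from 0.0173 to 0.0425). All of these were lost under median scaling and under quantile normalization. Dnmt3l was also lost without MIY-ctrl replicate 2, Dppa3 without MIY-ctrl replicate 1 or 2 or replicate 1 or 2 of the construct compared, and Zfp57 in MEIS1-deltaHD without its replicate 1 or 3. Zfp57 in M33-MEIS1 was lost without any 1 of the MEIS1-deltaHD arrays and without M33-MEIS1 replicate 1 or 2.

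Between MEIS1-WT and the other MEIS1 forms the de novo methyltransferase gene Dnmt3b differed. It read 915, 795 and 623 in MEIS1-WT, 547, 492 and 544 in MEIS1-deltaHD, 451, 519 and 477 in M33-MEIS1, and 491, 653 and 539 in MIY-ctrl. Dnmt3b rose in MEIS1-WT by 0.45 against MIY-ctrl (limma adjusted p = 0.00342), by 0.53 against MEIS1-deltaHD (adjusted p = 0.00532), where the call was lost without MEIS1-WT replicate 1 and under division by the median, and by 0.66 against M33-MEIS1 (adjusted p = 0.00043). Hells and Tet2 also met the threshold in MEIS1-WT against M33-MEIS1, with 0.33 and -0.43 (limma adjusted p = 0.0473 and 0.0113). The count of 3 there was 1 without MEIS1-WT replicate 2 or M33-MEIS1 replicate 1 or 2. Hells was lost under 15 of 21 other settings, each omission of a MEIS1-WT, MEIS1-deltaHD or M33-MEIS1 array and of MIY-ctrl replicate 1 among them, and Tet2 under 4, among them the omission of MEIS1-WT replicate 2 or M33-MEIS1 replicate 1 or 2. Tet2, a demethylating dioxygenase gene, fell against MIY-ctrl by 0.56 in MEIS1-WT and by 0.30 in MEIS1-deltaHD (limma adjusted p = 0.00014 and 0.0256). Neither held under division by the median, where the second was 0.16, and the second was also lost without MIY-ctrl replicate 1 or MEIS1-deltaHD replicate 1 or 2. Against MEIS1-deltaHD, 2 genes met the threshold without MIY-ctrl replicate 2, MIY-ctrl replicate 3 or M33-MEIS1 replicate 3, in place of 1.

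M33-MEIS1 against MEIS1-deltaHD showed no called gene in any of these 4 lists (limma, adjusted p), where 0.627% of all genes rose and 0.0357% fell. At an unadjusted p under 0.05 there were 4 flanking genes, 1 imprinted gene elsewhere, 0 Notch genes and 2 methylation genes.

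Levels of other cell types moved with the groups. The arrays read bulk RNA, in which fewer cells of a type and less RNA per cell cannot be told apart. The summed signal of 14 of 17 monocyte markers that were on the array was 821 to 977 in MEIS1-WT, 3115 to 3389 in MEIS1-deltaHD, 4972 to 5460 in M33-MEIS1 and 15390 to 17619 in MIY-ctrl. The lysozyme gene Lyz2, the brightest by its mean over all arrays, averaged 112 in MEIS1-WT, 630 in MEIS1-deltaHD, 1345 in M33-MEIS1 and 5391 in MIY-ctrl. Of the 14, 13 fell in MEIS1-WT and 12 in each of MEIS1-deltaHD and M33-MEIS1 against MIY-ctrl, where 20.2%, 23.7% and 19.2% of all genes fell. The part of monocyte content in the Dlk1, Meg3 and Rian values was not tested.

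The E86 producer cells on which the marrow grew are fibroblast-like, and Dlk1 is known from such cells. The summed signal of 19 of 20 fibroblast markers was 458 to 539 in MEIS1-WT, 381 to 449 in MEIS1-deltaHD, 379 to 436 in M33-MEIS1 and 629 to 729 in MIY-ctrl. It was thus highest in MIY-ctrl, and higher in MEIS1-WT than in both MEIS1-deltaHD and M33-MEIS1. The brightest of them was Pdgfrb, with 189, 162, 139 and 315 as means in that order. Thy1 and Acta2 came next, with means of 117 and 70.4 in MIY-ctrl, and these genes carried most of the sum. Collagen genes lay near the floor, such as Col1a1 with 11.4, 5.17, 2.73 and 11.8 in the same order. Only 13 of the 19 passed the filter, so the order of the sums is no measure of fibroblast content. Tagln and Fstl1 never left the lowest 40% of their array. The part of producer cells in the Dlk1, Meg3 and Rian values was not tested.

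Markers of stem and progenitor cells were a list of 16, of which 14 passed, with Myb the brightest. The list includes Meis1, of which the constructs carry forms and whose probe sets did not show the introduced gene. Their summed signal was 10025 to 10387 in MEIS1-WT, 8496 to 9048 in MEIS1-deltaHD, 8782 to 9026 in M33-MEIS1 and 9538 to 10450 in MIY-ctrl, so that MEIS1-WT overlapped MIY-ctrl and lay above both MEIS1-deltaHD and M33-MEIS1, as MIY-ctrl did. Against MIY-ctrl 5 rose and 5 fell in MEIS1-WT, and 2 rose and 11 fell in each of MEIS1-deltaHD and M33-MEIS1, that is 35.7% and 35.7% of the 14 in the first case and 14.3% and 78.6% in the others. Of all genes 16.1% rose and 20.2% fell in MEIS1-WT, 16.7% and 23.7% in MEIS1-deltaHD, and 15% and 19.2% in M33-MEIS1. MEIS1-WT had 6 of the 14 higher than MEIS1-deltaHD and 5 higher than M33-MEIS1, where 2.85% and 2.59% of all genes were higher.

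Single genes of this list, named after their values were seen and so given without a test, took different courses. Hlf, a transcription factor of haematopoietic stem cells, averaged 433 ± 20.3 in MEIS1-WT, 102 ± 11.9 in MEIS1-deltaHD, 71.9 ± 10.4 in M33-MEIS1 and 197 ± 45.3 in MIY-ctrl (SD, n = 3 each). Gata2, another such factor, averaged 256 ± 16.6, 194 ± 10.4, 256 ± 41.4 and 372 ± 36.4 in the same order, highest in MIY-ctrl. The part of progenitor content in the Dlk1, Meg3 and Rian values was not tested.

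Genes whose level ran most like that of the bright Dlk1 probe set were ranked by Pearson's r of log2 signal over the 12 arrays, over all genes with a probe set of their own. The r is set largely by the 4 groups and is a description. The first 6 were Hacl1 (0.977), an enzyme of peroxisomal fatty acid oxidation; Igfbp7 (0.976), a secreted binding protein; Ddx4 (0.971), a germ cell RNA helicase; Fam234b (0.970); Lims1 (0.970), an adhesion adaptor; and Ndnf (0.967), a secreted factor. Ddx4 averaged 327 ± 20.2 in MEIS1-WT, 27.3 ± 2.6 in MEIS1-deltaHD, 28.5 ± 7.1 in M33-MEIS1 and 51.2 ± 23.0 in MIY-ctrl (SD, n = 3 each), and Igfbp7 averaged 1509 ± 160.4, 608 ± 42.1, 747 ± 37.0 and 767 ± 40.1.

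**Figure D5:**
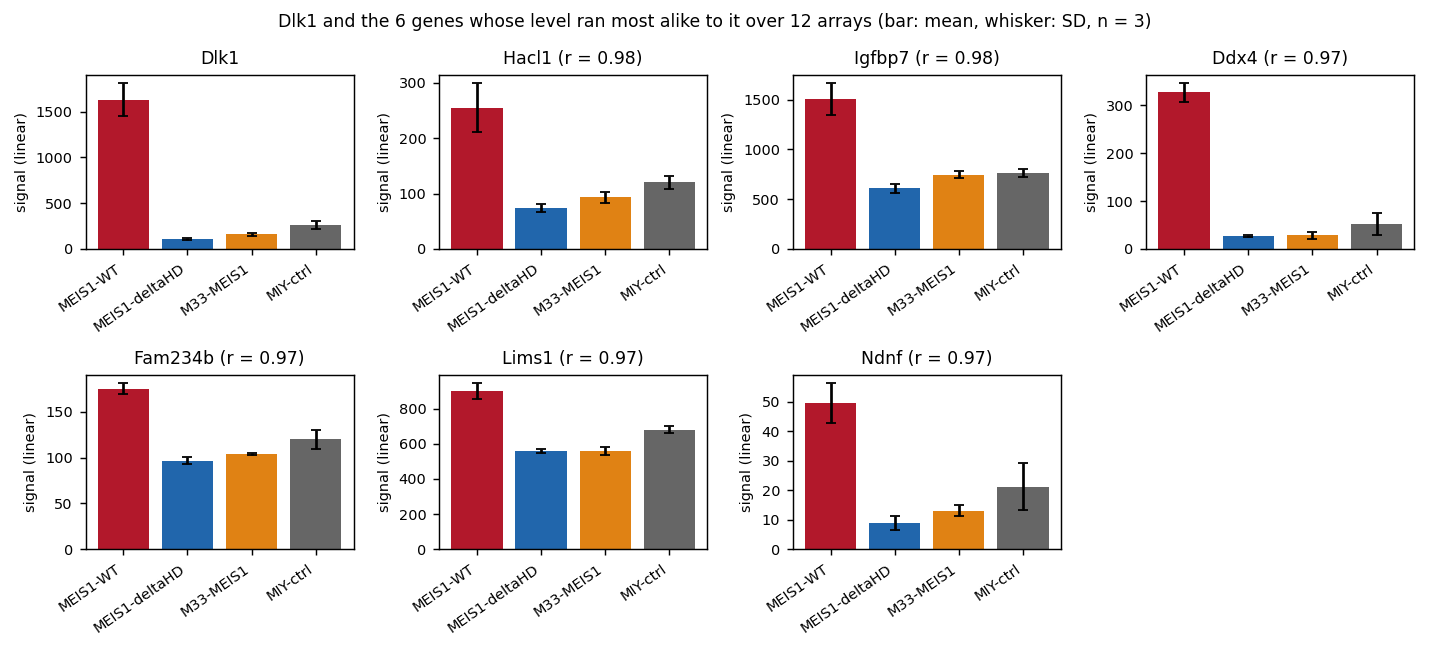
Mean signal of Dlk1 (probe set 1449939_s_at) and of the 6 genes with the highest Pearson r to it over 12 arrays, by group, on linear axes from 0 that differ between panels; whiskers are the SD (n = 3). In each panel MEIS1-WT is the highest bar, and MIY-ctrl is the second highest in all 7.

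For the brightest Meg3 probe set the 4 genes most alike were Lims1 (0.988), the cytoskeletal gene Ablim1 (0.983), the vesicle gene Scamp1 (0.979) and the peroxisomal transporter gene Abcd3 (0.976). Lims1 thus stood in both rankings. It averaged 900.4 ± 45.9 in MEIS1-WT, 560 ± 10.7 in MEIS1-deltaHD, 558 ± 22.2 in M33-MEIS1 and 681 ± 20.9 in MIY-ctrl. For Rian 1427580_a_at the 4 were the hyaluronan receptor gene Cd44 (0.916), the growth factor gene Nrg4 (0.915), Igfbp7 (0.909) and the ubiquitin ligase gene Mib1 (0.879). This Rian probe set was the brightest only through its MEIS1-WT arrays.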

How the data were processed

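RNA of 12 samples, 4 groups of 3, was measured on Affymetrix arrays. The deposited values are signal intensities on a linear scale for 45101 probe sets, made by the authors with GCOS 1.2 per the submitters' processing notes; each array's mean after trimming 2% at both ends was 100. The platform annotation gives 34945 probe sets 1 gene symbol, 932 several and 9160 none, and 64 are controls, which were left out; no probe set with several symbols was named. The members and the gene lists were chosen with earlier results of these data known, and that choice rested on the same arrays.

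From these values log2(signal + 16) was taken, and 31762 probe sets above the 40th percentile of their array on at least 3 arrays were kept. A list gene was read from its brightest kept probe set. All 12 arrays entered a single limma fit (limma 3.58.1, R 4.3.3; intensity trend, 8 residual degrees of freedom), with Benjamini-Hochberg adjustment over all kept probe sets in each of 6 comparisons and a threshold of 0.05. The p-values measure the spread between arrays that the labels describe as independent experiments. The fit was tested on simulated data with known shifts. Named list genes were up to 4 per list and comparison with the largest difference among those called, shown with all their called comparisons. For marker lists they were the brightest gene and those never above the lowest 40%, and for likeness the 6 or 4 genes with the highest r. Motifs were searched with Python 3.11.15, and figures were drawn with matplotlib 3.10.9.

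The main fit did not pair arrays by the replicate numbers in the titles. Deviations from the group means of same-numbered arrays correlated between -0.05 and 0.03 over 18 pairs, which cannot show whether such arrays share an experiment. Alternatives were other offsets, filters and scalings, no trend, a replicate block, shared probe sets left out and each array left out in turn. Leaving out shared probe sets changed only which probe set stood for a gene. It was not applied to the counts of Dlk1, Meg3 and Rian probe sets, several of which may be shared. Protein and probe sequences were not used here.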

Additional observations from a re-analysis of the deposited data

How the results depend on the processing

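Of 1728 recomputed differences of the Dlk1, Meg3 and Rian probe sets, 1611 moved by less than the replicate SD, 117 moved further and 0 of those called in the main analysis changed sign. For Dlk1 1449939_s_at an offset of 1 gave 3.89 in MEIS1-WT against MEIS1-deltaHD. An offset of 64 gave 3.29 there, 2.92 against M33-MEIS1 and 2.39 against MIY-ctrl, and -0.90 in MEIS1-deltaHD against MIY-ctrl. Dividing arrays by their medians gave 2.93, -0.67 and -0.31 in MEIS1-WT, MEIS1-deltaHD and M33-MEIS1 against MIY-ctrl. The replicate block left the Dlk1 differences at 2.58 and -1.14 in MEIS1-WT and MEIS1-deltaHD against MIY-ctrl; of the named genes it ended only the call of Hells in MEIS1-WT against M33-MEIS1. The labels do not say whether same-numbered arrays come from the same experiment.

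Of 1572 values of named list genes, 157 kept their sign and lost the call and 10 changed sign. With shared probe sets left out, Plagl1 gave -0.16, 0.041 and 0.23 in MEIS1-WT, MEIS1-deltaHD and M33-MEIS1 against MIY-ctrl, and -0.21 and -0.40 in MEIS1-WT against MEIS1-deltaHD and M33-MEIS1, since another probe set then stood for it. Under median scaling the differences in MEIS1-deltaHD against MIY-ctrl were 0.17 for Wars, 0.0058 for Notch1, 0.060 for Psen2 and 0.16 for Tet2, and Wars was 0.039 in MEIS1-WT; this scaling raises every difference against MIY-ctrl.

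Counts of called genes moved by over 1.5 times in 47 of 504 cases; beyond the scaling, the cause was not tested. For imprinted genes elsewhere, MEIS1-deltaHD against MIY-ctrl gave 3 with an offset of 1, 8 under median scaling and 2 to 6 with an array left out, and MEIS1-WT against MIY-ctrl gave 7 under median scaling. MEIS1-WT against MEIS1-deltaHD and against M33-MEIS1 gave 1 each without the filter or without shared probe sets, the second also 1 without the trend, and both 1 to 2 with an array left out. For methylation genes, MEIS1-WT against MEIS1-deltaHD gave 2 with the stricter filter or quantile normalization, 0 under median scaling or without the trend, and 0 to 2 with an array left out. MEIS1-WT against M33-MEIS1 gave 1 under median scaling and 1 to 3 with an array left out. MEIS1-deltaHD against MIY-ctrl gave 6 after quantile normalization and 4 to 10 with an array left out, and M33-MEIS1 against MIY-ctrl gave 4 without the trend and 4 to 7. For Notch genes, median scaling gave 8 in MEIS1-deltaHD and 4 in M33-MEIS1 against MIY-ctrl, quantile normalization gave 6 in MEIS1-WT against MIY-ctrl, and MEIS1-WT against MEIS1-deltaHD gave 1 to 2 with an array left out. For flanking genes, MEIS1-WT against MEIS1-deltaHD gave 2 without shared probe sets, and MEIS1-deltaHD against MIY-ctrl 3 to 9 with an array left out. Most Meg3 and Rian probe sets lie near the array floor, where log2(signal + 16) shrinks differences.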
